A study of Mus musculus with 10 samples.

Results

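Genes for iron storage, iron uptake and export, iron sensing and iron-sulfur (Fe-S) cluster assembly were examined in activated muscle satellite cells (MuSCs) with and without the Mg2+ channel TRPM7. The set was given by name and holds 9 of the 24608 gene symbols in the table: the ferritin subunits Fth1 and Ftl1, the iron importers Tfrc and Slc11a2, the iron exporter Slc40a1, the iron sensors Aco1 and Ireb2, and the Fe-S assembly genes Iscu and Nfs1. All 9 were in the table, and 7 passed the filter on low counts that left 7753 genes; Slc40a1 and Iscu did not. MuSCs were isolated 3 days after muscle injury by cardiotoxin (CTX) from control mice (Trpm7+/+; Pax7CreERT2/+; Rosa26YFP) and conditional knockout mice (Trpm7 cKO; Trpm7 flox/flox; Pax7CreERT2/+; Rosa26YFP), with 5 libraries of each genotype. Trpm7 cKO replicates 4 and 5 share a number in their labels and may come from 1 animal, so n counts libraries; with both summed into 1, the same 2 members were higher and the same 4 lower. Every adult mouse had received tamoxifen before the injury, so that both genotypes carried the inducible Cre, driven by the Pax7 locus of satellite cells, together with the drug, the YFP reporter and the CTX injury. Each library was made from 3000 sorted YFP-positive cells by CEL-Seq2, which reads the 3′ end of a transcript and counts molecules by a unique molecular identifier (UMI).

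Ferritin is a hollow shell of heavy (Fth1) and light (Ftl1) chains that holds iron in a harmless form. Cells take up iron through the transferrin receptor Tfrc and carry it out of the endosome through Slc11a2 (DMT1), and ferroportin, Slc40a1, exports it. When iron is scarce, the iron regulatory proteins IRP1 (Aco1) and IRP2 (Ireb2) bind a hairpin named the iron-responsive element (IRE), which in a 5′ untranslated region (UTR) blocks translation and in a 3′ UTR protects the RNA from decay. Mitochondria use iron to make heme and Fe-S clusters, for which Nfs1 supplies sulfur and Iscu is the scaffold.

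The hairpins are shown first because they place Fth1, Ftl1, Slc40a1 and Tfrc on either arm of that control. IRE-shaped sequences were searched in annotated transcripts of GRCm38 as C, any 5 bases, CAGTGN, and 5 bases that pair with the first 5, G-T pairs allowed, on the sense strand only. Fth1, Ftl1 and Slc40a1 each held 1 in the 5′ UTR and Tfrc held 4 in the 3′ UTR. The capitals mark the bulged C and the 6-base loop:
Fth1, 5′ UTR, chr19:9982732-9982761, plus strand: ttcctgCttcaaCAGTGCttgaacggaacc
Ftl1, 5′ UTR, chr7:45459778-45459807, minus strand: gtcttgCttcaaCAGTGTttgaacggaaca
Slc40a1, 5′ UTR, chr1:45925464-45925493, minus strand: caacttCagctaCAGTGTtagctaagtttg
Tfrc, 3′ UTR, chr16:32631219-32631248, plus strand: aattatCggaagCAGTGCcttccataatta
Tfrc, 3′ UTR, chr16:32631598-32631627, plus strand: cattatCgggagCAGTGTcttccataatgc
Tfrc, 3′ UTR, chr16:32631663-32631692, plus strand: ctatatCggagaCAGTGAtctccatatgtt
Tfrc, 3′ UTR, chr16:32631710-32631739, plus strand: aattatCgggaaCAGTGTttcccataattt
The ferritin chains share the 5 bases on each side of the loop. The Tfrc hairpins differ from each other in the 5 bases before it, while those starting at 32631219 and 32631598 share the 5 after it. Such a sequence was found in the 5′ UTR of 16 of 7427 tested genes with an annotated one (0.215%) and in the 3′ UTR of 62 of 7453 (0.832%). These letters and pairs were not found in the UTRs of Slc11a2, Aco1, Ireb2, Iscu or Nfs1. The search allowed no unpaired base within the 5 pairs, so it would miss a hairpin with a further bulge. The absence of a match therefore does not place a gene outside that control. Among other iron genes, Alas2 held the sequence in the 5′ UTR and Bola3 in the 3′ UTR. A match is a description of the transcript, and RNA counts do not measure whether a regulatory protein was bound.

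**Figure D1:**
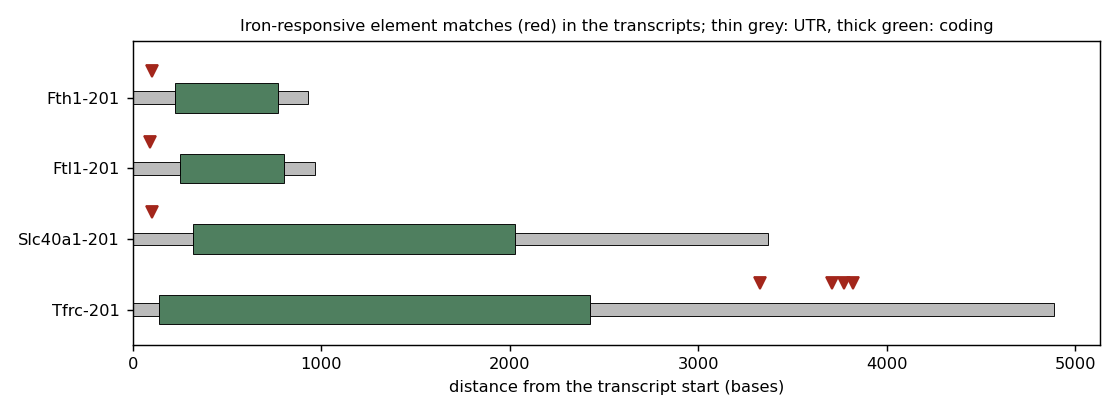
Positions of IRE-shaped sequences in the 5′ UTR, coding sequence and 3′ UTR of Fth1, Ftl1, Slc40a1 and Tfrc, drawn to scale in bases from the transcript start. The ferritin and Slc40a1 transcripts have 1 near the 5′ end, and the 4 of Tfrc lie in its 3′ UTR, from base 3315 of a transcript of 4890 bases.

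Depth and composition differed between the genotypes and bear on every value that follows. Control libraries held 914361 to 1097709 counts and Trpm7 cKO libraries 205986 to 581121, so that 1 count stood for 0.994 to 1.16 normalized CPM, the count scaled to the library's size, in control and for 1.66 to 5.52 in Trpm7 cKO libraries. All 21 tested leukocyte markers of 26 listed were higher in Trpm7 cKO, and their summed level was 431 to 708 CPM in control and 1581 to 7009 CPM in Trpm7 cKO libraries. Erythroid markers summed to 1.99 to 178 CPM in control and 148 to 3278 CPM in Trpm7 cKO, with all 3 tested ones higher; Slc4a1 and Epb42, which mark that lineage, were at 0 in all control libraries and each at 1 count over all Trpm7 cKO libraries. Fibroadipogenic markers summed to 1025 to 2061 CPM in control and 1728 to 3969 CPM in Trpm7 cKO (5 of 6 tested higher), and endothelial markers to 6.43 to 60.2 CPM and 114 to 590 CPM (both tested genes higher). MuSC identity genes were present in all libraries, at 3140 to 3725 CPM in control and 3049 to 5255 CPM in Trpm7 cKO, and of 15 tested 9 were higher and 2 lower (median log2 fold change 0.80). Counts of Trpm7 itself did not differ detectably (log2 fold change −0.09, edgeR adjusted p = 0.723). The position of the deleted part relative to the 3′ counts is not given in the sources used here, so these counts do not check the labels.

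Both ferritin chains had higher RNA shares in Trpm7 cKO MuSCs, and the importers Tfrc and Slc11a2, the sensor Ireb2 and the sulfur donor Nfs1 had lower ones. Of the 7 members tested, 2 were higher and 4 lower at an edgeR adjusted p below 0.05, against 24.6% of all tested genes higher and 24.1% lower. With 7 genes and so many calls across the transcriptome, these counts set nothing about the members apart from other genes. The median log2 fold change (Trpm7 cKO over control) was −0.76 over the 7 members and −0.01 over all genes tested. For 5 of the 7 the libraries of the genotypes did not overlap, which held for 34.5% of all genes tested. Past the adjusted p, 12.0% of all tested genes differed by more than 1.5 on the log2 scale, upward or downward, and no member did. RNA shares in sorted bulk cells cannot tell apart fewer cells of one type and less RNA per cell.

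**Figure D2:**
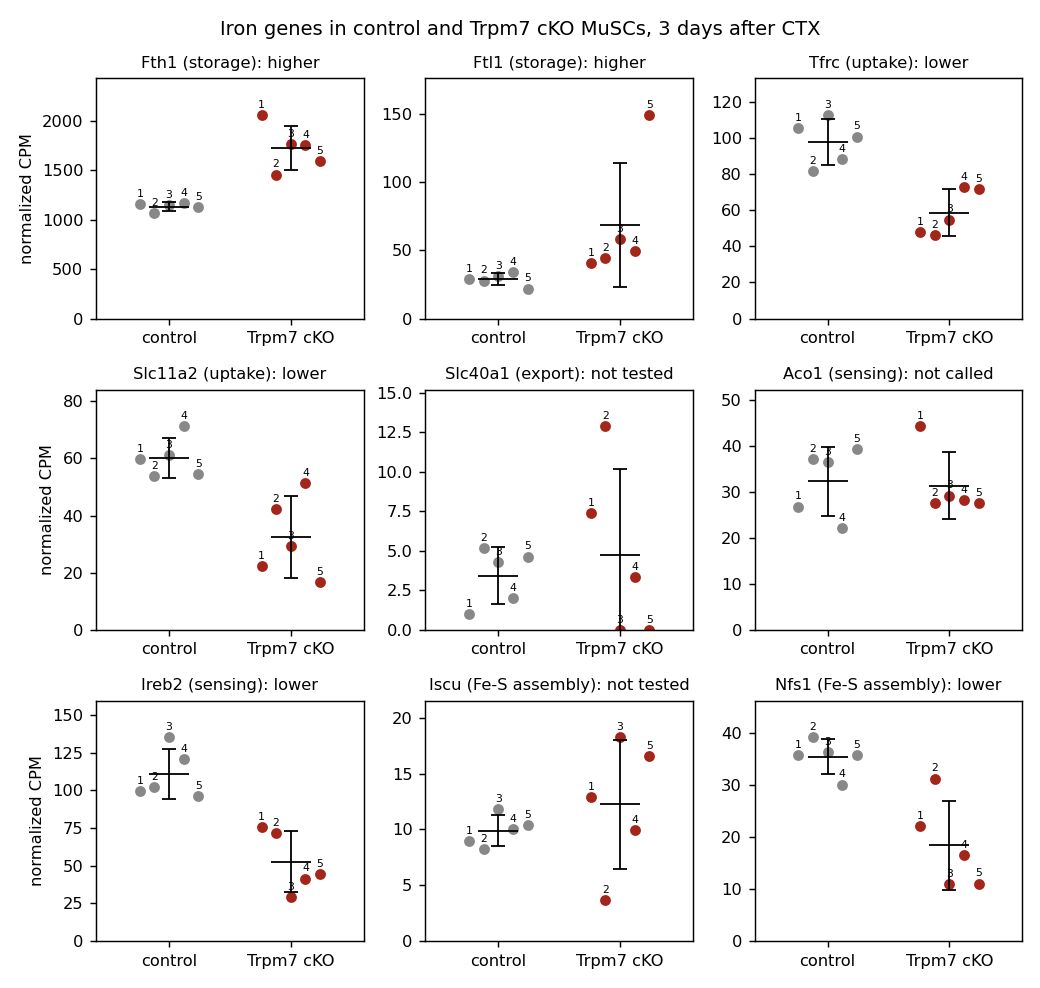
Normalized CPM of the 9 members in the 5 control and 5 Trpm7 cKO libraries; points are libraries labelled by replicate number, bars the means and error bars the SD, each axis starting at 0. The genotypes do not overlap for Fth1, Ftl1, Tfrc, Slc11a2 and Ireb2, and they overlap for Slc40a1, Aco1, Iscu and Nfs1.

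Fth1, the ferritin heavy chain, oxidizes incoming iron so that it can be stored. In control libraries Fth1 stood at 1157, 1064, 1151, 1170 and 1126 CPM (replicates 1 to 5), and in Trpm7 cKO libraries at 2058, 1456, 1761, 1755 and 1595 CPM. Every Trpm7 cKO library was above every control library, and the controls lay within a narrow band. The means were 1133 ± 42 and 1725 ± 225 CPM (SD, n = 5 each), a 1.52-fold difference (log2 fold change 0.61, SE 0.13, edgeR adjusted p = 0.000783). Behind these values were 973 to 1165 counts in control and 289 to 1114 in Trpm7 cKO libraries. The gene lies at chr19:9980598-9985098 on the plus strand of GRCm38 (ENSMUSG00000024661) and its transcript Fth1-201 has 4 exons. Of its last 500 bases, 45.2% lie in stretches of 31 bases that also occur, on either strand, in transcripts of 3 pseudogenes. The 2 pseudogene entries in the table held 5 counts in all libraries, against 9139 for Fth1.

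Ftl1, the ferritin light chain, helps the iron core to form inside the shell. Its control libraries held 28.8, 27.9, 31.1, 34.1 and 22 CPM and its Trpm7 cKO libraries 40.7, 44.2, 58.5, 49.7 and 149 CPM. All Trpm7 cKO libraries were above all controls, with replicate 5, the shallowest library, far above the others. The means were 28.8 ± 4.50 and 68.4 ± 45.6 CPM (n = 5 each; log2 fold change 1.04, SE 0.29, adjusted p = 0.00563), and without that library the log2 fold change was 0.71 (adjusted p = 0.00963). Only 19 to 34 counts in control and 16 to 30 in Trpm7 cKO libraries were assigned to Ftl1. The value is uncertain in another respect, which concerns the 3′ end of Ftl1-201 (chr7:45457944-45459884, minus strand, ENSMUSG00000050708, 4 exons). Of its last 500 bases, 100% lie in 31-base stretches that also occur, on either strand, in another annotated gene. Such stretches were found in 31 other genes, 17 of them pseudogenes. How reads that match several genes were counted is not given in the sources used here. The 3 of those pseudogenes that the table lists held 2 counts in all libraries together.

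Fth1 and Ftl1 together made up 0.1086, 0.1108, 0.1107, 0.1111 and 0.1085% of all counts in control libraries. In Trpm7 cKO libraries they made up 0.2164, 0.1518, 0.1705, 0.1874 and 0.1534%. The share was 0.110 ± 0.0013% in control and 0.176 ± 0.0269% in Trpm7 cKO (n = 5 each), a ratio of 1.6. Mitochondrially encoded transcripts took 12 to 16.5% of counts in control and 8.82 to 10.6% in Trpm7 cKO libraries. Without them the ferritin share was 0.126 to 0.133% in control and 0.167 to 0.238% in Trpm7 cKO, again with no overlap.

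The ferritin difference depended on the scale it was read on. Relative to the MuSC identity genes, most of which were themselves higher in Trpm7 cKO, the ferritin ratio was 1.26. On that scale the log2 fold change was 0.31 for Fth1 (edgeR adjusted p = 0.201) and 0.78 for Ftl1 (edgeR adjusted p = 0.0428). Without scaling, as counts per 3000 sorted cells, Fth1 had 973 to 1165 counts in control and 289 to 1114 in Trpm7 cKO libraries, and the direction turned (log2 fold change −0.53, adjusted p = 0.183, and −0.21, adjusted p = 0.617, for Ftl1). All genes moved with this scaling, their median log2 fold change being −1.15, so that Fth1 was 0.62 above the median of all genes on the scale of sorted cells and 0.61 above it in normalized CPM. The leukocyte sum in the YFP-sorted Trpm7 cKO replicates 1 to 5 was 4061, 1581, 3997, 7009 and 6528 CPM, and replicate 2, the lowest, also had the lowest Fth1 of that genotype, whereas replicate 4, the highest, had the third highest. With the leukocyte score as a covariate the log2 fold changes were 0.42 for Fth1 (adjusted p = 0.575) and 0.14 for Ftl1 (adjusted p = 0.95). The score did not overlap between the genotypes, which leaves such a fit little to separate them by, and the part of leukocyte RNA in the ferritin difference was not tested.

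Tfrc, which binds iron-loaded transferrin at the cell surface, was lower in Trpm7 cKO. It stood at 105, 81.6, 113, 88.3 and 101 CPM in control and at 48.0, 46.0, 54.8, 72.9 and 71.7 CPM in Trpm7 cKO libraries. The highest Trpm7 cKO library was below the lowest control. The means were 97.7 ± 12.6 and 58.7 ± 12.9 CPM (n = 5 each), 1.69-fold lower in Trpm7 cKO (log2 fold change −0.76, SE 0.18, edgeR adjusted p = 0.00164), from 79 to 106 and 13 to 44 counts. Tfrc (chr16:32608920-32632794, plus strand, ENSMUSG00000022797, 19 exons) shared none of the 31-base stretches at its 3′ end with another gene. With the leukocyte score as a covariate the log2 fold change was −1.48 (adjusted p = 0.0895).

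The heavy chain of ferritin and the receptor can be read against each other within a library, where scaling has no part. There were 11, 13, 10.2, 13.2 and 11.2 Fth1 counts per Tfrc count in control and 42.8, 31.6, 32.1, 24.1 and 22.2 in Trpm7 cKO libraries. The means were 11.7 ± 1.34 and 30.6 ± 8.16 (n = 5 each), and every Trpm7 cKO library exceeded every control. As the quotient of 2 members already described it carries no test of its own.

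Slc11a2 carries ferrous iron from the endosome into the cytosol and was lower in Trpm7 cKO. Control libraries held 59.7, 53.7, 61.1, 71.3 and 54.4 CPM and Trpm7 cKO libraries 22.2, 42.3, 29.2, 51.4 and 16.6 CPM. The groups did not overlap, although Trpm7 cKO replicate 4 came close to the lowest control. The means were 60.0 ± 7.06 and 32.3 ± 14.4 CPM (n = 5 each; log2 fold change −0.78, SE 0.23, adjusted p = 0.00901), from 47 to 71 counts in control and 3 to 31 in Trpm7 cKO. The gene lies at chr15:100387898-100425072 on the minus strand (ENSMUSG00000023030, 17 exons). With the leukocyte score as a covariate its log2 fold change was −0.49 (adjusted p = 0.722).

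Slc40a1, the only known cellular iron exporter, was too sparse to compare. Its counts were 1, 5, 4, 2 and 4 in control and 4, 7, 0, 2 and 0 in Trpm7 cKO libraries. The 2 libraries at 0 were Trpm7 cKO replicates 3 and 5, in which a count of 0 allows up to 3 counts, or 11 and 16.6 CPM, more than any control library had. The mean levels were 3.42 ± 1.81 and 4.72 ± 5.48 CPM (n = 5 each), and in a fit without the filter the adjusted p was 0.491. A difference in Slc40a1 (chr1:45908068-45926523, minus strand, ENSMUSG00000025993) was not detectable at this depth.

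The 2 iron sensors differed in their values. Ireb2, whose protein is degraded when iron is plentiful, stood at 99.4, 102, 135, 120 and 96.1 CPM in control and at 75.8, 71.8, 29.2, 41.4 and 44.1 CPM in Trpm7 cKO libraries. All Trpm7 cKO libraries were below all controls, replicates 1 and 2 being the nearest to them. The means were 111 ± 16.6 and 52.5 ± 20.3 CPM (n = 5 each), 2.00-fold lower in Trpm7 cKO (log2 fold change −1, SE 0.21, adjusted p = 0.000549), from 83 to 126 and 8 to 41 counts. After thinning of every library to the smallest, the log2 fold change was −0.77 (adjusted p = 0.0545). With the leukocyte score as a covariate the direction turned (log2 fold change 0.14, adjusted p = 0.921). Ireb2 lies at chr9:54863789-54912530 on the plus strand (ENSMUSG00000032293, 22 exons).

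Aco1 is the cytosolic aconitase when it holds an Fe-S cluster and binds IREs when it does not. It stood at 26.8, 37.2, 36.5, 22.1 and 39.4 CPM in control and at 44.3, 27.6, 29.2, 28.2 and 27.6 CPM in Trpm7 cKO libraries. The groups overlapped, with the highest value of all in Trpm7 cKO replicate 1 and the lowest in control replicate 4. The means were 32.4 ± 7.50 and 31.4 ± 7.27 CPM (n = 5 each; log2 fold change −0.01, SE 0.24, adjusted p = 0.989), from 22 to 36 and 5 to 24 counts. Per sorted cell, where most genes were lower, the log2 fold change was −1.14 (adjusted p = 0.00711). The difference between Ireb2 and Aco1 in their response was not tested. Aco1 lies at chr4:40143081-40198338 on the plus strand (ENSMUSG00000028405, 21 exons).

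Nfs1, the cysteine desulfurase that provides sulfur for the clusters, was lower in Trpm7 cKO. It stood at 35.8, 39.2, 36.5, 30.1 and 35.9 CPM in control and at 22.2, 31.3, 11, 16.6 and 11 CPM in Trpm7 cKO libraries. The groups overlapped by a single library, Trpm7 cKO replicate 2, which was above control replicate 4. The means were 35.5 ± 3.32 and 18.4 ± 8.56 CPM (n = 5 each; log2 fold change −0.81, SE 0.26, adjusted p = 0.0138), from 30 to 38 counts in control and only 2 to 17 in Trpm7 cKO. Without the shallow Trpm7 cKO replicates 3 and 5, an alternative chosen after the data were seen, the log2 fold change was −0.61 (adjusted p = 0.0675), and with the leukocyte score as a covariate it was 0.18 (adjusted p = 0.984). Gm28036, a protein-coding gene on the same strand, overlaps the 3′ end of Nfs1 (chr2:156123639-156144186, minus strand, ENSMUSG00000027618, 13 exons), so that counts of the pair may have been divided between them.

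Iscu, the scaffold on which the cluster is built, had 9, 8, 11, 10 and 9 counts in control and 7, 2, 5, 6 and 3 in Trpm7 cKO libraries. It stood at 9.89 ± 1.37 and 12.3 ± 5.79 CPM (n = 5 each), with overlapping libraries and an adjusted p of 0.957 in a fit without the filter. A difference was not detectable at this depth. Of its last 500 bases, 22.2% lie in 31-base stretches that also occur in 1 pseudogene, Gm16437. The few counts of Iscu are therefore uncertain too (chr5:113772748-113778288, plus strand, ENSMUSG00000025825, 5 exons).

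**Figure D3:**
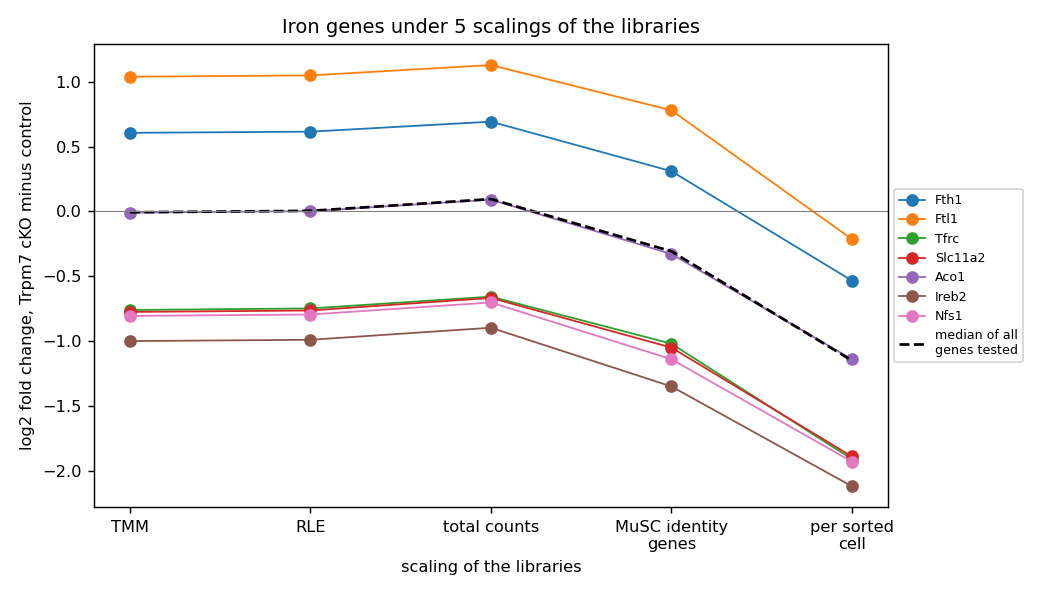
Log2 fold changes (Trpm7 cKO over control) of the 7 tested members under 5 scalings of the libraries, with the median of all tested genes as a dashed line. The values shift with the median, from −0.01 in normalized CPM to −1.15 per sorted cell, because scaling moves all genes of a library together. Fth1 lies above the median, and Tfrc, Slc11a2, Ireb2 and Nfs1 lie below it.

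The members can also be read by their distance from the median of all genes under the 5 scalings. Fth1 lay 0.60 to 0.62 above it and Ftl1 0.94 to 1.09 above it on the log2 scale. Tfrc lay −0.76 to −0.72 from it, Ireb2 −1.04 to −0.97 and Nfs1 −0.84 to −0.78. Scaling moves all genes of a library together, so distances that hardly change follow from the method and are no support for a difference. They show where a member stood among genes and not its amount per cell.

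Of 109 symbols listed for other iron genes, 101 were in the table and 60 were tested. Some of the 109 are second names of a gene that is also listed under another symbol. Of the 60 tested, 8 were higher, 20 lower and 32 did not pass the test. The median log2 fold change was −0.33. The shares of 13.3% higher and 33.3% lower stand against 24.6% and 24.1% of all genes tested. In 24 of the 60 the genotypes did not overlap, beside 34.5% of all genes tested.

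In iron storage and transport the calls went both ways. Pcbp1 and Pcbp2 are RNA-binding proteins that also deliver iron to ferritin. Pcbp1 was lower, at 1651 ± 318 CPM in control and 642 ± 126 in Trpm7 cKO (log2 fold change −1.35, SE 0.17, adjusted p = 2.11e-06), and Pcbp2 was higher at a far lower level (0.78, SE 0.28, adjusted p = 0.0269). Ncoa4, which leads ferritin to its breakdown, had 1 to 7 counts in control and 0 to 7 in Trpm7 cKO libraries. It stood at 3.50 ± 2.26 and 6.55 ± 5.35 CPM and was not tested. The uptake members Tfrc and Slc11a2 were lower, as described above. Of 6 other tested uptake genes, 4 were higher and 1 lower, beside 24.6% higher and 24.1% lower of all genes tested. The 4 were Steap4, Trf, Lrp1 and Slc39a14. Steap4, a metalloreductase, had the largest log2 fold change of them (5.57 ± 3.89 and 88.5 ± 54.7 CPM, log2 fold change 4.08, SE 0.49, adjusted p = 1.4e-05). Steap1, a protein of the same family, was the lower one (78.9 ± 15.6 and 25.4 ± 11.7 CPM, log2 fold change −1.48, SE 0.24, adjusted p = 4.24e-05). Trf encodes transferrin (log2 fold change 3.13, adjusted p = 3.04e-06) and Slc39a14 the iron and zinc importer ZIP14 (1.54, adjusted p = 1.91e-05). Steap3, the endosomal reductase of erythroid cells, had 4 to 12 counts in control and 2 to 11 in Trpm7 cKO libraries (8.20 ± 3.35 and 12.5 ± 5.69 CPM). Slc11a1, the iron transporter of macrophage phagosomes, had 1 to 4 and 1 to 7 counts (2.89 ± 1.05 and 11.3 ± 9.94 CPM). Neither gene was tested. Ceruloplasmin, Cp, the ferroxidase that acts beside ferroportin, was the single export gene tested and was higher (22.4 ± 6.84 and 131 ± 35.0 CPM, log2 fold change 2.54, SE 0.24, adjusted p = 9.25e-08). Fbxl5, the ligase component that marks Ireb2 protein for degradation, did not pass the test (log2 fold change 0.33, SE 0.22, adjusted p = 0.227). The leukocyte, fibroadipogenic and erythroid markers moved in the direction of the higher genes, and their part in these results was not tested.

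No tested gene of mitochondrial Fe-S assembly other than the members was higher, and 6 of 11 were lower (54.5%), beside 24.6% higher and 24.1% lower of all genes tested, with a median log2 fold change of −0.75. By edgeR at an unadjusted p below 0.05, by DESeq2 and by limma-voom the list likewise had 0 higher and 6 lower. In these 6 genes the libraries of the genotypes did not overlap, as in 34.5% of all genes. Glrx5, the glutaredoxin that passes clusters on, had the lowest log2 fold change of the 11 (320 ± 23.2 CPM in control and 106 ± 24.6 in Trpm7 cKO, log2 fold change −1.59, SE 0.16, adjusted p = 2.53e-07). Lyrm4 (ISD11), the partner protein of Nfs1, was also lower (41.0 ± 8.69 and 15.3 ± 8.66 CPM, log2 fold change −1.24, SE 0.29, adjusted p = 0.00151). Ndufab1, Isca2 and Bola3 were lower as well, with log2 fold changes from −1.26 to −0.80. The cochaperone Hscb had 5 to 14 counts in control and 2 to 7 in Trpm7 cKO libraries and was not tested. Scaled for depth, its means were close (9.28 ± 3.75 CPM in control and 8.20 ± 2.94 in Trpm7 cKO). Slc25a37, mitoferrin 1, which brings iron into mitochondria, was lower (61.2 ± 10.3 and 35.2 ± 11.2 CPM, log2 fold change −0.76, SE 0.22, adjusted p = 0.00819). Its libraries overlapped, with a lowest control of 46.2 CPM and a highest Trpm7 cKO library of 54.7 CPM. The other tested gene of mitochondrial iron import was not called (log2 fold change 0.33, edgeR adjusted p = 0.29).

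Cytosolic assembly genes had 2 lower of 8 tested and 0 higher by edgeR, with 1 higher at an unadjusted p below 0.05, 0 by DESeq2 and 1 by limma-voom. Ciapin1, an electron carrier of that pathway, was lower at 111 ± 14.6 and 29.8 ± 5.64 CPM (log2 fold change −1.82, SE 0.18, adjusted p = 2.34e-07), and Ciao2b, of the complex that targets clusters to their proteins, at a log2 fold change of −1.50 (adjusted p = 6.24e-06). The CDGSH proteins Cisd1 and Cisd2, which hold Fe-S clusters on the outer mitochondrial and reticulum membranes, were both lower, at −1.15 (adjusted p = 1.19e-05) and −0.47 (adjusted p = 0.00859). Among enzymes that carry Fe-S clusters 7 of 18 were lower and 0 higher by edgeR, also at an unadjusted p below 0.05, against 6 lower and 0 higher by DESeq2 and by limma-voom (median −0.39). Over all genes tested 24.1% were lower and 24.6% higher by edgeR. They ranged from Uqcrfs1, the Rieske protein of complex III (log2 fold change −1.69, adjusted p = 2.58e-07), to the ribosome recycling factor Abce1 (−0.44, adjusted p = 0.0254).

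Of the 5 tested genes of heme synthesis 0 were called by edgeR, at an unadjusted p below 0.05 too, and 0 by DESeq2 and limma-voom (median log2 fold change 0.07, adjusted p from 0.121 to 0.836). Of 4 tested genes of heme breakdown and transport, 2 were higher, beside 24.6% higher and 24.1% lower of all genes tested. The 2 were Hmox1 and biliverdin reductase Blvra (log2 fold change 0.99, adjusted p = 0.0216). Hmox1, the heme oxygenase that frees iron from heme, stood at 21.5 ± 6.17 and 54.5 ± 20.8 CPM (log2 fold change 1.30, SE 0.28, adjusted p = 0.000809). The Hmox1 libraries overlapped slightly, from 12.9 to 27.9 CPM in control and 27.7 to 76.2 CPM in Trpm7 cKO.

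**Figure D4:**
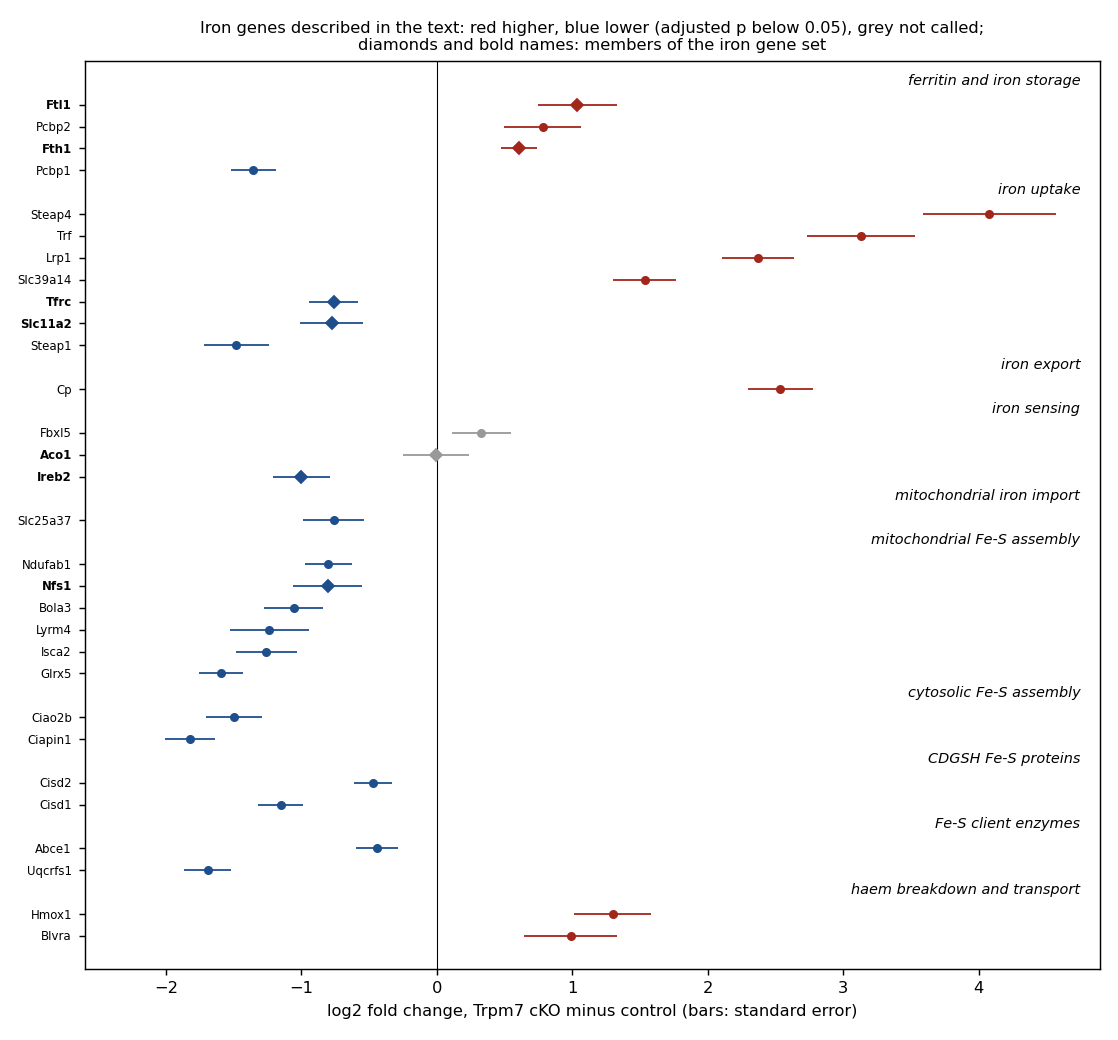
Log2 fold changes (Trpm7 cKO over control, points) with their SE (bars) for the 7 tested members (diamonds) and the 23 other tested iron genes described by name, by list; red marks genes called higher, blue lower and grey not called by edgeR. Most were named because they were called, so the plot does not show the spread of a list; Steap4 has the largest value and Ciapin1 the lowest.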

How the data were processed

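The authors deposited 1 table of UMI counts per gene, not normalized, for all 10 libraries; per the labels, identifiers were extracted with UMI-tools 1.1.4, reads trimmed with Trim Galore 0.6.10, aligned to GRCm38 with HISAT2 2.2.1 and counted with featureCounts 2.0.6. The annotation release, the strand setting and the handling of reads with several matches are not given in the sources used here. The table has 24620 entries under 24608 symbols, and for the 12 symbols on a further line the entry with the larger total was used.

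The deposited counts were analysed with edgeR 4.0.16 (R 4.3.3; TMM, filterByExpr with a minimum count of 10, robust quasi-likelihood test, genotype as the only term), and p-values were adjusted over all 7753 genes by Benjamini-Hochberg at 0.05. DESeq2 1.42.0 and limma 3.58.1 (voom) were alternatives, beside other scalings, filters, thinning, the replicate number as a block, a leukocyte covariate and leaving out each library. Normalized CPM used the TMM-scaled library sizes, and the SE was derived from the log2 fold change and its F statistic. Limits from counts cover counting error only, and p-values measure the spread between these libraries, which may in part be technical. The labels give Trpm7 cKO replicates 4 and 5 a number in common without saying what it marks, so that they may come from 1 animal; a fit with both summed was an alternative.

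The members and all lists were chosen with earlier results of these data known. Named genes were the members, the called genes with the highest and lowest log2 fold change of each list, partners of the members, and the 3 genes most like Fth1, Tfrc and Slc40a1; Trf, Lrp1, Slc39a14, Ndufab1, Isca2 and Bola3 were named after their values were seen. Transcripts of GENCODE release M21 gave the coordinates and hairpin sequences. Same-numbered libraries of the genotypes did not deviate together (correlations from −0.12 to 0.18), so the numbers were not taken as pairs. Some genes of the lists are counted but not reported here by name.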

Additional observations from a re-analysis of the deposited data

Results flagged for a closer look

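Within each genotype, 78 groups of 5 libraries were searched for a highest or lowest library set far apart from the rest, and 4 were found, where chance at 1 in 20 gives 3.9. Ftl1 was at 149 CPM in Trpm7 cKO replicate 5, the shallowest library, and at 40.7 to 58.5 CPM in the others of that genotype. Aco1 was at 44.3 CPM in Trpm7 cKO replicate 1 and at 27.6 to 29.2 CPM in the others. Slc25a37 was at 54.7 CPM in Trpm7 cKO replicate 4, which also had the highest leukocyte sum, and at 27.6 to 33.1 CPM in the others. The summed erythroid markers were at 178 CPM in control replicate 5 and at 1.99 to 23.8 CPM in the other controls.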

How the results depend on the processing

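Leaving out each library in turn left 2 members higher and 4 lower each time, with 3399 to 4094 genes called in all, 7 to 10 other iron genes higher, 18 to 22 lower and a ferritin ratio of 1.51 to 1.65. Scaling on MuSC identity genes left 1 member higher (Fth1 lost its call) and a ferritin ratio of 1.26. On counts per sorted cell 0 members were called higher and 5 lower (Tfrc, Slc11a2, Aco1, Ireb2 and Nfs1), with 4 other iron genes higher and 45 lower, while Fth1 stood at −0.53 and Ftl1 at −0.21, and the median of all genes at −1.15. Of called genes 50.6% were higher in the values reported, 59.0% with total counts, 31.9% with identity genes and 6.86% per sorted cell. Thinning to the smallest library, which left 3941 genes to test, called 1794 genes, with 4 other iron genes higher and 10 lower; only Fth1, Tfrc and Ireb2 of the members could be tested, giving 1 higher (Fth1), 1 lower (Tfrc) and Ireb2 short of the threshold. With the leukocyte covariate 514 genes, 0 members in either direction, and 3 other iron genes higher and 2 lower were called, Ireb2 standing at 0.14 and Nfs1 at 0.18; 74.5% of the calls were higher, and the cause was not tested. With a log2 fold change beyond 1.5 required, 932 genes, 0 members, and 5 other iron genes higher and 3 lower passed. With Trpm7 cKO replicates 4 and 5, which share a number in the labels, summed into 1 library, 4114 genes were called, 2 members higher and 4 lower, and 8 other iron genes higher and 20 lower. With the replicate block 3572 genes were called, 2 members higher and 4 lower, and 8 other iron genes higher and 19 lower. Without Trpm7 cKO replicates 3 and 5, or with pseudogene counts added, both chosen after seeing the data, Nfs1 alone among the members lost its call, in the former. Fth1 kept direction and call in 21 of 24 alternatives, Ftl1 in 21 of 23, Tfrc in 22 of 23, Slc11a2 in 21 of 22, Ireb2 in 21 of 23 and Nfs1 in 20 of 22. Depth kept Slc40a1 and Iscu from being tested.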

Other observations

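The genes whose log2 CPM was most like that of Fth1 over the 10 libraries were Apobec1 (Pearson r = 0.969), Scpep1, a lysosomal carboxypeptidase (0.964), and Lpl, lipoprotein lipase (0.959), out of 7752 compared. For Tfrc they were Rnf145 (0.971), Ssr1, of the translocon-associated complex of the reticulum (0.968), and Gata2, a transcription factor (0.958). For the sparse counts of Slc40a1 they were Pdp1 (0.959), Wiz (0.926) and Tgfbrap1 (0.901). These values also hold the differences in genotype and depth between the libraries, and they come with no test. Over deviations from the genotype means the genes most like Fth1 were Arl8a (0.926), Csnk2b (0.908) and Ret (0.906), none of them among the first 3 above. For Tfrc they were Mydgf (0.915), Nucb1 (0.902) and Fryl (0.902), and for Slc40a1 they were Pdp1 (0.961), Tiam2 (0.958) and the member Nfs1 (0.942). Such deviations still hold differences in depth within a genotype, and they come with no test. In the shallow Trpm7 cKO replicates 3 and 5 Slc40a1 had 0 counts and Nfs1 had 3 and 2.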
